A study of Mus musculus with 6 samples.

Results

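The genes Crabp1, Crabp2, Rarres1, Rarres2 and Rarg, which act in the binding of retinoids or in the response to them, were followed in single cells of mouse rhabdoid tumors. They are 5 of the 16557 genes listed in at least 1 of the 6 tables of UMI counts. The 5 were picked by name with earlier results of these data in view, from their UMIs and positive cells in tumor cells against other cells and in eRT against MYC spinal tumors. Those contrasts are therefore given below as a description, with no test. All 5 genes are listed for MYC spinal 3, eRT 1 and eRT 3, 4 for eRT 2, and 3 each for MYC spinal 1 and MYC spinal 2. Crabp2 and Rarres2 are not listed for MYC spinal 1, Crabp2 and Rarres1 for MYC spinal 2, and Rarres2 for eRT 2. A gene not listed for a tumor was counted as 0 there. The authors' methods state a minimum of 3 cells per gene, so such a gene may have had UMIs in fewer cells. A limit or bound given for it holds only if none were dropped.

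The study asked from which cells rhabdoid tumors of the MYC subgroup arise and compared spinal tumors (MYC spinal) with extracranial rhabdoid tumors (eRT). In all 6 mice, on a C57BL/6 background, floxed Smarcb1 was deleted by a Cre recombinase that tamoxifen (50 mg per kg, given to the pregnant dam at day 6.5 after conception) activates. MYC spinal tumors 1, 2 and 3, taken at 19, 26 and 17 weeks, and eRT 1, taken from a gland at 17 weeks, came from the Rosa26-cre strain, in which Cre is driven from a ubiquitously active locus. The tumor eRT 2, from the jaw at 29 weeks, and eRT 3, from the shoulder at 22 weeks, came from the Sox2-cre strain. In that strain Cre is driven by the Sox2 promoter. Subtype and strain thus cannot be told apart fully. Each tumor is 1 animal and 1 library, and no tumor-free tissue was compared. Cell names in the tables are renumbered within each library, so barcodes shared between libraries could not be counted.

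Retinoic acid is made inside cells from vitamin A in a pair of oxidation steps and acts through nuclear receptors, which sit on DNA as pairs of a retinoic acid receptor (RAR) and a retinoid X receptor (RXR). CRABP1 and CRABP2 are small cytoplasmic carriers of retinoic acid. CRABP2 hands its ligand to RAR in the nucleus, whereas CRABP1 holds retinoic acid in the cytoplasm and is linked to its breakdown by CYP26 enzymes. Rarg encodes RAR gamma, a receptor prominent in skin and skeletal precursors. Rarres1 and Rarres2 were named as genes that respond to retinoids in skin. Rarres1 encodes a membrane protein related to latexin, the product of Lxn, and Rarres2 encodes chemerin, a secreted attractant of macrophages and dendritic cells. In embryos, both carriers mark neural crest and mesenchyme.

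On GRCm38, the build to which mm10 corresponds, the GENCODE annotation places Crabp1 (ENSMUSG00000032291) at chr9:54764748-54773110 on the plus strand and Crabp2 (ENSMUSG00000004885) at chr3:87948666-87953376 on the plus strand. Rarres1 (ENSMUSG00000049404) lies on the minus strand at chr3:67478972-67515523, and its relative Lxn lies 15045 bases away on the same strand, with 1 annotated gene between them, at chr3:67457998-67463926. Rarres2 (ENSMUSG00000009281) lies on the minus strand at chr6:48569696-48572789 and overlaps Lrrc61 on the opposite strand. Rarg (ENSMUSG00000001288) lies on the minus strand at chr15:102234938-102257517. Apart from Rarres2, no member overlaps another annotated gene.

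The promoters of Crabp1, the member with the highest levels, and of the relatives Rarres1 and Lxn, which were high in the same MYC spinal tumors, are shown as the 250 bases before the RefSeq start (GRCm38.p6), 5′ to 3′ on the strand of the gene. Capitals mark matches, on either strand, to the hexamers bound by nuclear receptors that are spelled out after the sequences. The windows are chr9:54764498-54764747 (plus strand) for Crabp1, chr3:67515524-67515773 (minus strand) for Rarres1 and chr3:67463908-67464157 (minus strand) for Lxn. Crabp2 and Rarres2 have no entry in the table used.
Crabp1: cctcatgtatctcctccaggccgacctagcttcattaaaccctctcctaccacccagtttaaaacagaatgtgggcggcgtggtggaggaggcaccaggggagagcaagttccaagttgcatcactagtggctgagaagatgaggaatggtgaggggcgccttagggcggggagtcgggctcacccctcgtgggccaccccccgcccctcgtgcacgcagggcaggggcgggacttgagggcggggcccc
Rarres1: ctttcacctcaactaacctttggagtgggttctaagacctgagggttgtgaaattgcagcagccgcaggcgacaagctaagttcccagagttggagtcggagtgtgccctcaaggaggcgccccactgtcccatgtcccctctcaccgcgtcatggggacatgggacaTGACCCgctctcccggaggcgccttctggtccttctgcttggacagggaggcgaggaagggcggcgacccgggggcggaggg
Lxn: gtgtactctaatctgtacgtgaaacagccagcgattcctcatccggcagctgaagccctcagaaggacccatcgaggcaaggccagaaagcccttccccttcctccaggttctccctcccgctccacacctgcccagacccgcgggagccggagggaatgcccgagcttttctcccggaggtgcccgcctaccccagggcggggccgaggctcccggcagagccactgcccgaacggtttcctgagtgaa

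The hexamers searched were AGGTCA, which 14.0% of 32851 RefSeq windows of this length hold on either strand, and 3 variants of it. The variant GGGTCA is held by 11.6% of windows, the variant AGTTCA by 11.8% and the variant GGTTCA by 8.85%. The Rarres1 window holds GGGTCA on the opposite strand, beginning 82 bases before the start site, and the Crabp1 and Lxn windows hold none of these letters. Rarg has a pair of RefSeq windows, not printed because its levels varied least between tumors, and 1 of them holds AGGTCA on the opposite strand, beginning 225 bases before the start site. None of the 3 printed windows holds a direct repeat of these hexamers with 1, 2 or 5 bases between (DR1, DR2 or DR5), found in 0.164%, 0.174% and 0.0883% of windows. All 3 printed windows hold the GC box GGGCGG, as do 32.7% of windows, and none holds the letters TATAAA, which 12.4% hold.

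After filters, 22163 cells were kept, with 3841706 to 26184224 UMIs per tumor. Tumor cells were taken as the clusters that lack Smarcb1. They numbered 95, 16 and 1432 in MYC spinal 1, 2 and 3 and 68, 201 and 607 in eRT 1, 2 and 3, 2419 in all. Their Smarcb1 level was 0, 0 and 2.79 CPM (UMIs of the gene scaled to a total of 1000000) in the MYC spinal tumors and 6.41, 1.61 and 1.70 CPM in the eRT, against 27.0 to 60.9 CPM in immune-like cells of these tumors. The 16 tumor cells of MYC spinal 2 hold 45674 UMIs. At the immune-like rate 1.23 Smarcb1 UMIs would have been found, so loss was not detectable there. Counts of genes at least 2-fold apart in all 6 tumors are also given without MYC spinal 2, while those over the MYC spinal tumors include it. The summed level of 57 immune markers was 1382 to 2979 CPM in the tumor cells of the other 5 tumors and 13793 CPM in those of MYC spinal 2, against 20725 to 117248 CPM in immune-like cells. A summed level of fibroblast markers was 616 to 3043 CPM in tumor cells and 1.34 to 29.9 CPM in immune-like cells. Immune-like cells made up 53.5% to 89.3% of the kept cells. Tumor cells were deeper than immune-like cells in every tumor (medians of 2049 to 6142 against 970 to 4856 UMIs), so shares of positive cells are also given after thinning to 1000 UMIs. Cells with fewer than 1000 UMIs were left out of the thinned shares, which thus cover fewer cells. In MYC spinal 2, 3 tumor cells and 2649 immune-like cells were left out, and 13 and 2456 remained. In eRT 2, 21 and 433 were left out. Intervals below are exact 95% Poisson or binomial intervals and cover counting error only, as does the limit of 3 counts given for a count of 0.

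Crabp1 was the member with the highest level in the tumor cells of 5 of the 6 tumors and stood far above the other cells of the same tumor in all 6. In MYC spinal tumor cells its level was 229 CPM in MYC spinal 1, 1051 CPM in MYC spinal 2 and 1099 CPM in MYC spinal 3. In eRT it was 885 CPM in eRT 1, 2412 CPM in eRT 2 and 4337 CPM in eRT 3. The subtype means were 793 ± 489 CPM for MYC spinal and 2544 ± 1729.9 CPM for eRT (SD, n = 3 each), and the groups overlap, since eRT 1 lies below MYC spinal 2 and MYC spinal 3. In other cells, tumor by tumor in that order, its level was 1.52, 0.931 and 133 CPM in MYC spinal and 2.29, 16.0 and 71.3 CPM in eRT. On the log2 scale after adding 10 CPM, tumor cells exceeded other cells by 4.37, 6.60 and 2.95 in MYC spinal and by 6.19, 6.54 and 5.74 in eRT. The smallest of these differences belongs to MYC spinal 3, the tumor with the highest level in other cells. As a ratio of CPM with nothing added, the measure behind each statement of at least 2-fold here, Crabp1 was at least 2-fold higher in tumor cells in 6 of 6 tumors, a pattern that 314 of 12873 genes showed (2.44%), and in the 5 tumors without MYC spinal 2, where 652 of 12922 genes did (5.05%). All genes were also ordered by the log2 ratio after adding 10 CPM. In that order Crabp1 came 1st in eRT 3, 2nd in eRT 2, 10th in MYC spinal 2, 11th in eRT 1, 48th in MYC spinal 3 and 51st in MYC spinal 1. This contrast was used to choose the gene, and nothing is read from these counts.

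**Figure D1:**
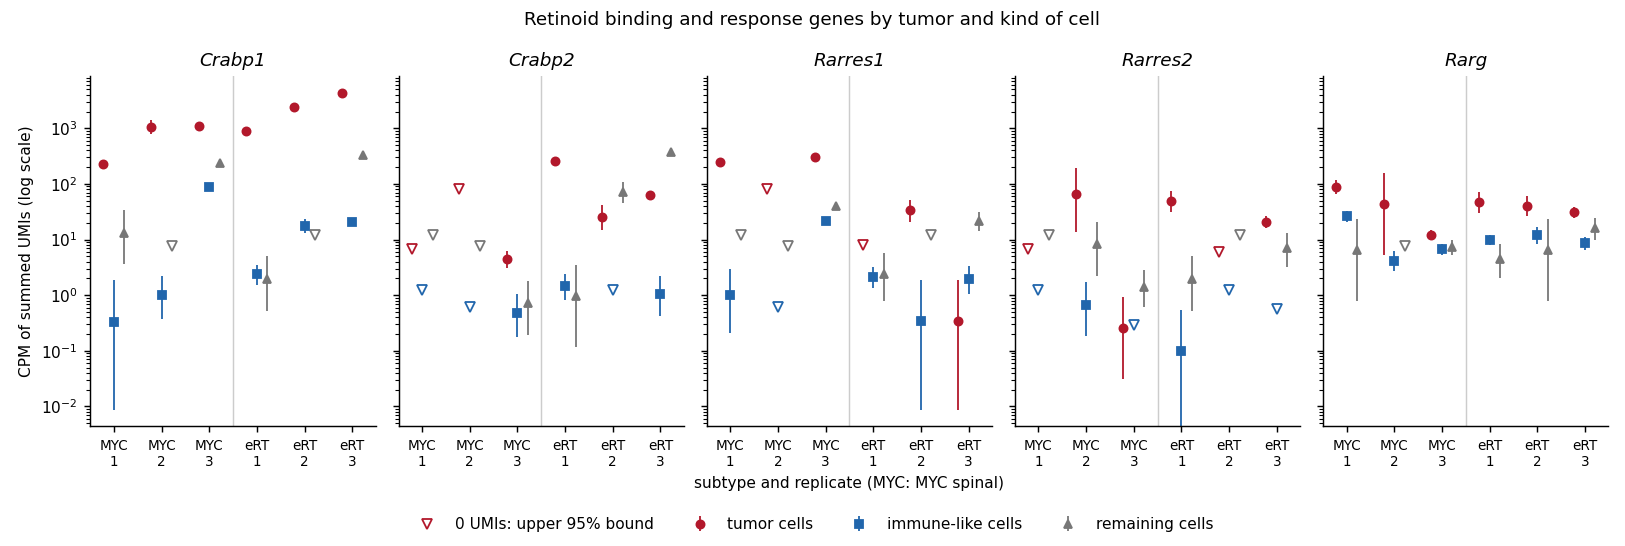
Levels of the 5 genes (CPM of summed UMIs, log axis) in tumor cells (red circles), immune-like cells (blue squares) and remaining cells (gray triangles) of each tumor, with exact 95% Poisson intervals. Open triangles stand at the upper 95% bound where no UMI was found. Crabp1 in tumor cells lies between 229 and 4337 CPM and above the other kinds of cells in all 6 tumors, while the other members change place from tumor to tumor.

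The tumors also differed in how Crabp1 was spread over their tumor cells. In eRT 3, 94.1% of 607 tumor cells held a Crabp1 UMI, and 254 of them held 20 or more. In eRT 2 the share was 81.6% of 201 cells and in MYC spinal 3 51.1% of 1432 cells, leaving 700 tumor cells of MYC spinal 3 with none. In eRT 1 only 14 of 68 tumor cells (20.6%, 11.7% to 32.1%) were positive, and the highest pair of them held 132 and 58 of its 414 UMIs. Of these 14 cells, 2 lay in the cluster of 36 cells led by Prg4. In MYC spinal 1 all 125 UMIs lay in 7 of 95 cells (7.37%, 3.01% to 14.6%), and the highest pair of cells held 56 and 34. The level of 229 CPM in MYC spinal 1 thus stands for a few cells with much Crabp1 among many with none. In MYC spinal 2, 8 of 16 cells were positive (24.7% to 75.3%), with at most 13 UMIs. Median depth was 5649 UMIs in the positive and 5698 UMIs in the negative tumor cells of MYC spinal 1, 8951 and 5719 UMIs in eRT 1, 5652 and 4080 UMIs in MYC spinal 3, 2247 and 1502 UMIs in eRT 2, and 4607 and 2010 UMIs in eRT 3. After thinning to 1000 UMIs the shares were 5.32%, 53.8%, 35.1%, 16.2%, 73.9% and 86.2% for MYC spinal 1, 2 and 3 and eRT 1, 2 and 3. Their order stayed as it was but for MYC spinal 2 and MYC spinal 3, which are close in the unthinned shares too.

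**Figure D2:**
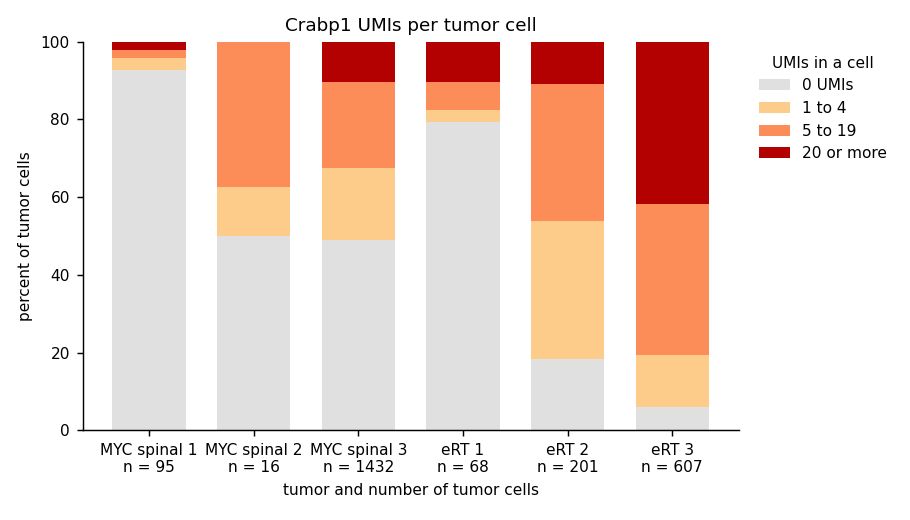
Percent of tumor cells (vertical axis) with 0, 1 to 4, 5 to 19 and 20 or more Crabp1 UMIs in each tumor, with the number of tumor cells under each bar. In eRT 3, 5.93% of tumor cells hold none, in eRT 2 18.4%, in MYC spinal 3 48.9%, in MYC spinal 2 50%, in eRT 1 79.4% and in MYC spinal 1 92.6%.

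As a background, the share of immune-like cells with a Crabp1 UMI was 0.0762%, 0.118% and 9.54% in MYC spinal 1, 2 and 3 and 1.26%, 2.25% and 4.05% in eRT 1, 2 and 3, at median depths of 1914, 970, 2879, 4856, 1314 and 2075 UMIs. Thinned to 1000 UMIs, these shares were 0%, 0.122%, 4.71%, 0.219%, 2.00% and 2.16%. In eRT 3 the 135 Crabp1 UMIs of immune-like cells lay in 121 cells, with at most 7 in a cell. Of all Crabp1 UMIs of a tumor, 78.1% in MYC spinal 3 and 88.9% to 96.6% in the other 5 were in tumor cells.

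In MYC spinal 3, the tumor with the highest Crabp1 in other cells, several clusters outside the tumor cells also held Crabp1 and Rarres1. In eRT 3 a fibroblast-like cluster held both, and another 23 cells outside the tumor cells held Crabp1 and no Rarres1 UMI, as given with Crabp2. An unnamed cluster of 200 cells, with Klk6, Trf and Cldn11 among its leading genes, whose Smarcb1 level was 0.439 of that expected, had 2063 CPM of Crabp1 in 63% of its cells and 216 CPM of Rarres1. A monocyte-like cluster (66 cells) had 1443 and 280 CPM, and an osteoclast-like cluster (83 cells, with a median of 8363 UMIs) had 414 and 142 CPM. Another 132 cells of MYC spinal 3, Smarcb1-negative at the coarser but not at the finer clustering, had 427 and 170 CPM. These 132 cells are counted among the other cells. The most numerous osteoclast-like cluster (1458 cells) had 26.6 CPM of Crabp1 and 3.92 CPM of Rarres1, and the most numerous macrophage-like cluster (1181 cells) 37.4 and 12.9 CPM. The level thus ranged widely over the non-tumor clusters of this tumor, from 0 to 2063 CPM. The median doublet score from Scrublet, a doublet caller, was 0.214 in the osteoclast-like cluster of 83 cells and 0.121 in the monocyte-like cluster, against 0.0368 over the whole library, and 0.0167 in the unnamed cluster. The number of Crabp1 UMIs per Rarres1 UMI was 3.56 in tumor cells, 4.04 in immune-like cells and 5.91 in the remaining cells. Whether doublets, free RNA or own expression gave these UMIs was not tested.

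**Figure D3:**
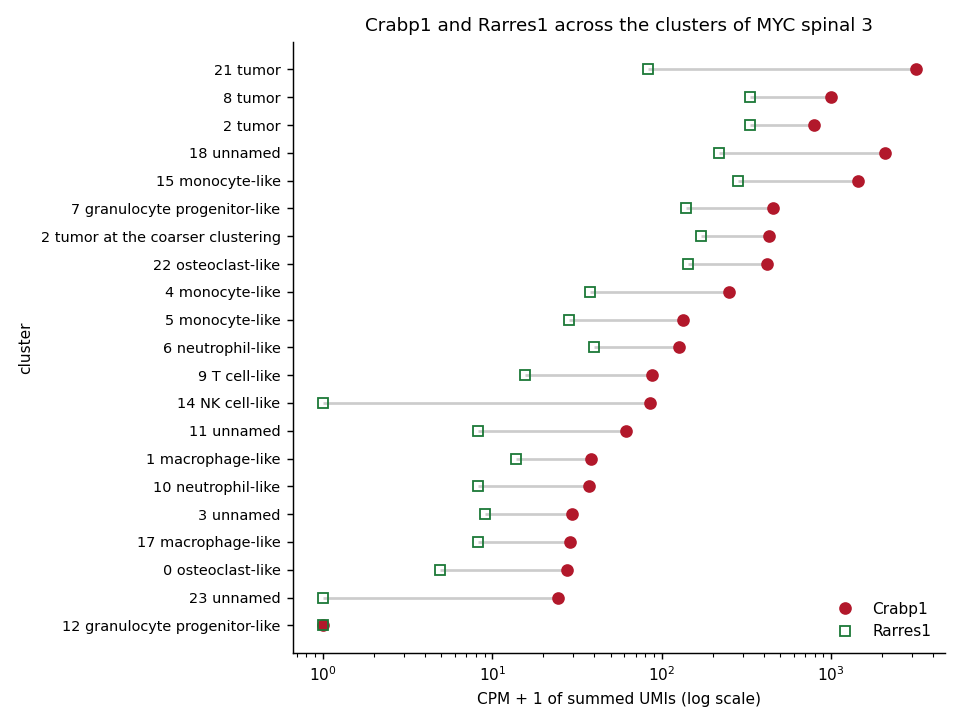
Crabp1 (filled circles) and Rarres1 (open squares) in the clusters of MYC spinal 3 with at least 10 cells, as CPM + 1 on a log axis. Clusters are grouped into tumor cells (top 3) and other cells, and "tumor at the coarser clustering" marks cells whose cluster lacked Smarcb1 at resolution 0.8 but not at 1.6. Tumor cluster 21 has the highest Crabp1 (3153 CPM) and a lower Rarres1 (82.0 CPM) than tumor clusters 2 and 8 (329 and 330 CPM).

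Within the tumor cells of MYC spinal 3, Crabp1 and Rarres1 had their highest levels in different clusters. Cluster 21, 97 cells led by Bex1, Stmn2 and Timp1, had 3153 CPM of Crabp1 in 96.9% of its cells and 82.0 CPM of Rarres1. Clusters 2 and 8 (707 and 628 cells) had 795 and 991 CPM of Crabp1 and 329 and 330 CPM of Rarres1. Over single cells, 53.7% of the 732 tumor cells with Crabp1 and 44.3% of the 700 without it held Rarres1, at median depths of 5652 and 4080 UMIs. Rarres1 was thus somewhat more frequent in the cells with Crabp1, which were also the deeper ones. These clusters were built from the same cells, so their differences are a description.

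Crabp2, the other carrier, was at a few CPM or not listed in MYC spinal tumors and was found in tumor cells of all 3 eRT. The gene is not listed for MYC spinal 1 or MYC spinal 2 and was counted as 0 there (limits 5.49 and 65.7 CPM). MYC spinal 3 had 4.43 CPM from 35 UMIs in 16 of 1432 cells. In eRT tumor cells the level was 254 CPM in eRT 1, 25.8 CPM in eRT 2 and 63.1 CPM in eRT 3, where 14.7%, 1.49% and 8.57% of cells were positive (8.82%, 1.11% and 4.61% after thinning). All 3 eRT values lie above all 3 MYC spinal values as counted, which 318 of 12431 genes do (2.56%), although the limit for MYC spinal 2 is above the values of eRT 2 and eRT 3. The means were 1.48 ± 2.56 CPM for MYC spinal and 114 ± 123 CPM for eRT (SD, n = 3 each). As this contrast helped to choose the gene, it has no test. In immune-like cells Crabp2 reached at most 1.48 CPM, with positive shares of 0% to 0.820%.

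Crabp2 and Crabp1 were found in partly different cells. In eRT 1 all 119 Crabp2 UMIs of tumor cells lay in 1 tumor cluster of 21 cells (607 CPM), and a pair of cells held 41 and 39 of them. Of the 14 Crabp1-positive and the 10 Crabp2-positive tumor cells of eRT 1, 1 cell held both. A second cluster of 11 tumor cells had 1936 CPM of Crabp1 and no Crabp2, and 36 tumor cells in a cluster led by Prg4, Cldn4, Cldn3 and Epcam had 13.4 CPM of Crabp1 (3 UMIs, 2.76 to 39.1 CPM) and no Crabp2. The few cells with either carrier were thus gathered in part of this tumor. The median doublet score was 0.194 in the cluster of 11 cells and 0.0895 in that of 21, against 0.0436 over the library, and the part of doublets was not tested. In eRT 3, by contrast, 45 of the 52 Crabp2-positive tumor cells also held Crabp1. There 7.88% of the 571 Crabp1-positive and 19.4% of the 36 Crabp1-negative tumor cells held Crabp2, at median depths of 4607 and 2010 UMIs.

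Most Crabp2 of eRT 2 and eRT 3 lay outside the cells counted as tumor cells. In eRT 2, 42.1% of its 38 UMIs were in tumor cells and 57.9% in a pair of the remaining cells, whose kind of cell was at 72.4 CPM against 25.8 CPM in tumor cells. Of the 671 UMIs of eRT 3, 27.6% were in tumor cells, 1.04% in immune-like cells and 71.4% in the remaining cells. A fibroblast-like cluster led by Itm2a, Ptn, Igfbp6, Fmod and Bgn, 72 of whose 80 cells come from eRT 3, had 1482 CPM of Crabp2 in 61.1% of these 72 cells, with 205 CPM of Crabp1 and 121 CPM of Rarres1. Its Smarcb1 level was 0.322 of that expected, above the limit of 0.25 for a tumor cluster, from 12.4 expected UMIs. Another 23 cells of eRT 3, which were Smarcb1-negative at the coarser but not at the finer clustering, had 1513 CPM of Crabp2 and 3437 CPM of Crabp1. The level of 63.1 CPM in tumor cells, close to 61.7 CPM in all other cells, therefore depends on where these cells are counted, and against immune-like cells alone (1.07 CPM) the tumor cells of eRT 3 stood higher. Whether the fibroblast-like cells carry the deleted allele was not tested.

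**Figure D4:**
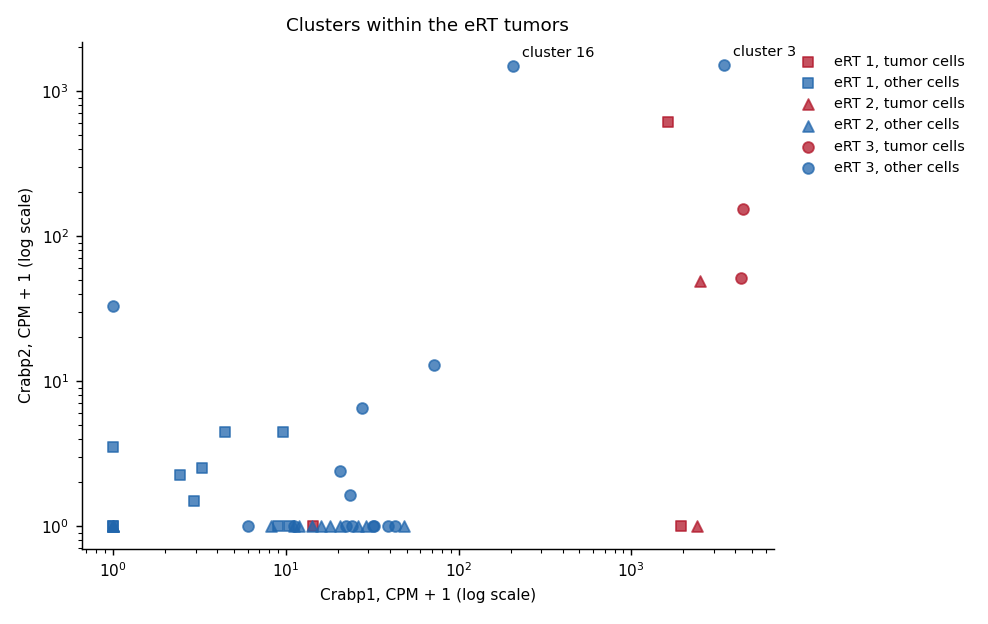
Crabp1 (horizontal) and Crabp2 (vertical) as CPM + 1, both on log axes, in clusters of at least 10 cells within each eRT; red marks tumor cells, blue other cells, and shapes mark eRT 1 (squares), eRT 2 (triangles) and eRT 3 (circles). The blue points labelled cluster 16 and cluster 3 are the 72 fibroblast-like cells (1482 CPM of Crabp2) and the 23 cells left out by the finer clustering (1513 CPM) of eRT 3, above all tumor clusters.

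Rarres1 was high in a pair of the 3 MYC spinal tumors. Its level in tumor cells was 251 CPM in MYC spinal 1 and 309 CPM in MYC spinal 3. MYC spinal 2, for which the gene is not listed, was counted as 0 (limit 65.7 CPM). In eRT the level was 33.8 CPM in eRT 2, from 21 UMIs in 4 of 201 cells, 0.341 CPM (1 UMI) in eRT 3 and 0 in eRT 1 (limit 6.41 CPM). The means were 186 ± 164 CPM for MYC spinal and 11.4 ± 19.4 CPM for eRT (SD, n = 3 each), and the values overlap because of MYC spinal 2. Other cells held 0.910 CPM in MYC spinal 1 and 27.3 CPM in MYC spinal 3, where tumor cells exceeded them by 4.58 and 3.10 on the log2 scale after adding 10 CPM. In MYC spinal 1, 24.2% of tumor cells were positive (16.0% after thinning), spread over 23 cells with at most 17 UMIs. In MYC spinal 3, 49.1% were positive (20.5% after thinning), against 3.97% of immune-like cells (1.69% after thinning). In MYC spinal 1 Rarres1 and Crabp1 stood at like levels, but 23 cells held Rarres1, 7 held Crabp1 and 1 held both.

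Rarres2, the chemerin gene, was rare everywhere, and its levels rest on a handful of cells. In eRT 1 all 23 UMIs of tumor cells (49.1 CPM) were in 1 cell of 68. In eRT 3, 61 UMIs (20.8 CPM) lay in 5 of 607 cells, 42 of them in 1 cell. In MYC spinal 2, 3 UMIs in 1 of 16 cells make 65.7 CPM, with an interval of 13.5 to 192 CPM. MYC spinal 3 had 2 UMIs (0.253 CPM). The gene is not listed for MYC spinal 1 or eRT 2 and was counted as 0 there (limits 5.49 and 4.83 CPM). A level averaged over a tumor therefore describes no typical tumor cell for this gene. It was at 0 to 0.671 CPM in immune-like cells.

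Rarg, the receptor, was the most even member. Tumor cells held 89.7 CPM in MYC spinal 1, 43.8 CPM in MYC spinal 2 (2 UMIs, 5.30 to 158 CPM), 12.3 CPM in MYC spinal 3, 47.0 CPM in eRT 1, 40.3 CPM in eRT 2 and 30.7 CPM in eRT 3. The subtype means were 48.6 ± 38.9 CPM for MYC spinal and 39.3 ± 8.21 CPM for eRT (SD, n = 3 each), so the subtypes overlap entirely. In other cells the levels ran from 3.88 CPM in MYC spinal 2 to 24.6 CPM in MYC spinal 1, with at most 11.4 CPM in the eRT, less than tumor cells in 6 of 6. The difference was at least 2-fold in all 3 eRT, as for 998 of 12584 genes (7.93%), and in MYC spinal 1 and MYC spinal 2 but not in MYC spinal 3. Positive tumor cells held 1 to 1.47 UMIs each on average, and their share fell from 41.1% to 10.6% in MYC spinal 1 and from 6.35% to 2.03% in MYC spinal 3 with thinning. Outside the tumor cells, Rarg was highest in T cell-like clusters. A cluster led by 5430421N21Rik, Actn2, Cxcr6 and Cd163l1 had 97.1 CPM in 173 cells of MYC spinal 1 (21.4% positive), and a cluster of eRT led by Cxcr6, Il17a, Cd3g and 5430421N21Rik had 92.3 CPM in 110 cells of eRT 3. The first lies within the interval of the tumor cells of MYC spinal 1 (66.3 to 118.5 CPM), and the latter above that of the tumor cells of eRT 3 (24.7 to 37.7 CPM).

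Over the 12 sums of tumor cells and of other cells, the 10 pairs of members had Pearson correlations of log2(CPM + 10) between -0.40 (Rarres1 and Rarres2) and 0.56 (Crabp1 and Rarg). These and the following correlations are descriptions over points that share libraries, and tumor and other cells differ in many genes. Among 5331 other genes with a mean of at least 20 CPM, those most like Crabp1 were Meg3 (r = 0.967), an imprinted long noncoding RNA, Rras (0.955) and Prkcdbp (0.955). For Crabp2 they were Fibin (0.929), M1ap (0.827) and S100a16 (0.791). For Rarres1 they were Fgfbp1 (0.908), Sntb2 (0.896) and Lxn (0.869), its relative nearby on chromosome 3, which overlaps Gfm1 on the opposite strand. For Rarg they were Trp53i13 (0.918), Sgce (0.907) and Tcta (0.895). For Rarres2 they were Gm2694 (0.941), Galnt1 (0.933) and Smarcal1 (0.896), where few UMIs fix the pattern. Lxn, shown above beside Rarres1, was at 322 and 572 CPM in the tumor cells of MYC spinal 1 and MYC spinal 3, where Rarres1 was high, and at 21.9, 100.4, 43.5 and 55.2 CPM in MYC spinal 2, eRT 1, 2 and 3.

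The study treats cycling tumor cells (in S or G2/M phase by their expression) as a population of their own, so the members were compared between cycling and other tumor cells of the same tumor. This contrast did not enter their choice. MYC spinal 2, with 6 cycling and 10 other tumor cells, was left out, and 5 tumors remained. Crabp1 was at 514 CPM in cycling and 158 CPM in other tumor cells of MYC spinal 1, 1168 and 1065 CPM in MYC spinal 3, 495 and 1132 CPM in eRT 1, 2721 and 2285 CPM in eRT 2, and 4426 and 4300 CPM in eRT 3. It was higher in cycling cells in 4 of 5 tumors and lower in eRT 1. Of the 5 members, 4 passed the filter on low counts and none passed the test, while 294 of 4458 genes did (6.59%), 3.99% higher and 2.6% lower in cycling cells. The log2 fold changes (cycling over other cells) were 0.17 (SE 0.24) for Crabp1, 0.15 (SE 0.23) for Crabp2, -0.24 (SE 0.25) for Rarres1 and -0.33 (SE 0.24) for Rarg, with adjusted p of 0.729, 0.760, 0.616 and 0.469 in edgeR's quasi-likelihood fit, after Benjamini-Hochberg adjustment over all genes. The cells were divided by the expression of cell cycle genes, so calls among those genes are no finding. Without MYC spinal 1 the log2 fold change of Crabp1 was -0.061, so its sign rested on that tumor. The 56 Crabp1 UMIs of cycling cells of MYC spinal 1 lay in 1 of 18 cells.

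The wider pathway was read from a list of 44 genes of retinoid uptake, synthesis, breakdown, reception and response and of chemerin reception. Of these, 36 were in at least 1 table and 27 reached 20 CPM in tumor or other cells of at least 1 tumor. In all 6 tumors none was at least 2-fold higher in tumor cells and 2 were at least 2-fold lower (Ccrl2 and Fabp5), against 2.44% and 6.04% of all genes. Without MYC spinal 2, 2 were higher (Meis1 and Meis2) and 3 lower (Ccrl2, Cmklr1 and Fabp5), against 5.05% and 7.1% of all genes. The levels behind Meis1 and Meis2 are low, and after adding 10 CPM the log2 ratio of Meis1 was 0.87 in MYC spinal 3, 0.43 in eRT 1 and 0.52 in eRT 3 and that of Meis2 0.44 in eRT 3, all under 2-fold. In all 3 MYC spinal tumors 1 was higher and 2 were lower, against 4.58% and 8.81%, while the eRT together gave 2 higher and 5 lower, against 7.93% and 10.1%. The counts, like the shares, cover genes with a mean of at least 1 CPM, and so not only the 27. In a list of this size, the counts depart from the shares of all genes by a few genes at most.

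**Figure D5:**
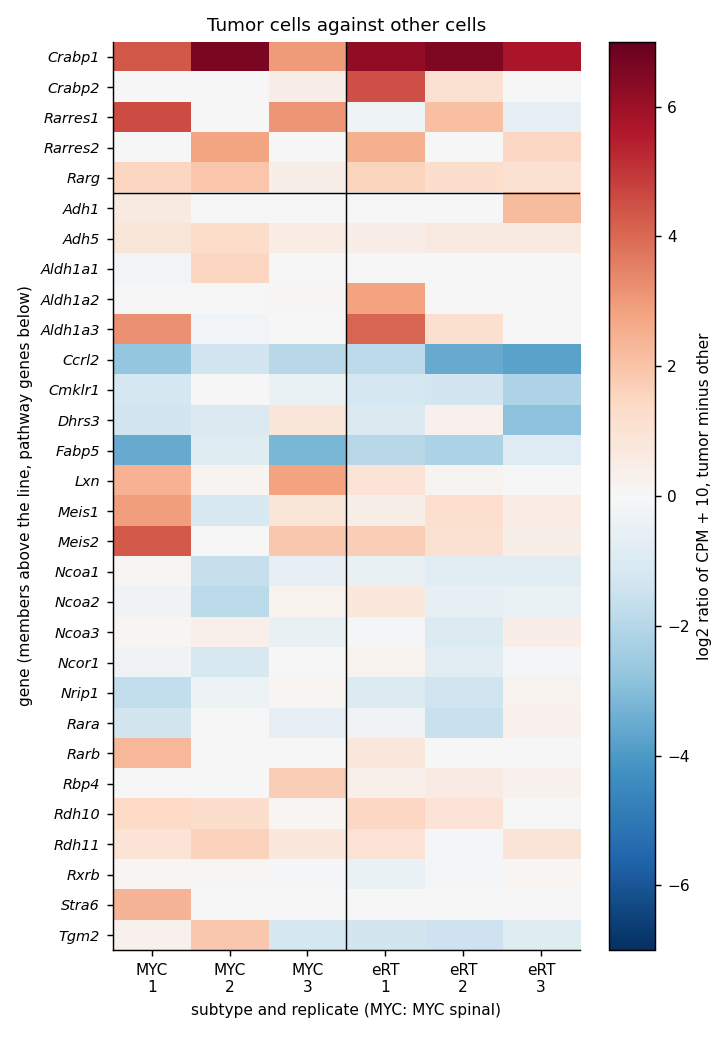
Log2 ratio of CPM + 10, tumor cells minus other cells, for the 5 members (above the line) and 25 of the 27 pathway genes that reached 20 CPM (below), in each tumor; red is higher in tumor cells and blue lower. Crabp1 is red in all 6 columns (2.95 to 6.60) and Ccrl2 and Fabp5 blue in all 6, while most genes of synthesis and response are colored in 1 or a few tumors.

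The genes of the retinaldehyde dehydrogenases, which make retinoic acid, differed from tumor to tumor. Aldh1a3, a retinaldehyde dehydrogenase, was at 184 CPM in the tumor cells of eRT 1, 80.5 CPM in MYC spinal 1, 21.0 CPM in eRT 2 and 0 to 1.52 CPM in the others. Aldh1a2 was at 62.0 CPM in eRT 1 and at most 0.760 CPM elsewhere, and Aldh1a1 at 21.9 CPM (1 UMI) in MYC spinal 2 alone. eRT 1 thus held a pair of these dehydrogenases together with the highest Crabp2. Of the retinol dehydrogenases, Rdh11 was at 4.83 to 43.8 CPM and at least 2-fold higher in tumor cells in all 3 MYC spinal tumors. The highest value is that of MYC spinal 2, with its 16 tumor cells. After adding 10 CPM the log2 ratio of Rdh11 was 0.95 in MYC spinal 1 and 0.76 in MYC spinal 3, both under 2-fold. Rdh10 was at 3.93 to 25.6 CPM in tumor cells and 2.46 to 3.72 CPM in others. Dhrs3, which reverses the first oxidation, was at 9.20 CPM in the tumor cells of eRT 3 and 130.6 CPM in its other cells, but at 48.9 and 22.6 CPM in MYC spinal 3. Adh5, a broadly active dehydrogenase, was at 65.7 to 179 CPM in tumor cells and 21.2 to 118 CPM in other cells, higher in 6 of 6 tumors. Adh1 was at 38.9 CPM in the tumor cells of eRT 3 and at most 7.32 CPM in those of the others. The genes of the breakdown enzymes, Cyp26a1, Cyp26b1 and Cyp26c1, did not reach 20 CPM in any tumor.

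Among genes of uptake and storage, Stra6, the membrane receptor for retinol carried by its plasma protein, was at 47.6 CPM in the tumor cells of MYC spinal 1 and at 0 in the other 5. Rbp4, the plasma carrier of retinol, was at 35.0 CPM in MYC spinal 3 and 0 to 6.48 CPM elsewhere. Of the receptors, Rxrb was even, at 12.9 to 22.3 CPM in tumor and 13.8 to 26.8 CPM in other cells. Rara was at 4.69 to 21.9 CPM in tumor cells and Rarb, itself a target of retinoic acid, at 42.1 CPM in MYC spinal 1, 8.55 CPM in eRT 1 and 0 in the other 4. The homeobox targets Meis2 and Meis1 were at 252 and 73.2 CPM in MYC spinal 1 and at 0 to 34.0 CPM and 0 to 14.5 CPM in the others. MYC spinal 1 thus held Stra6, Rarb, Meis1 and Meis2 at their highest, from its 95 tumor cells. The response genes of the list also include Dhrs3 and Tgm2. Their log2 ratios of tumor to other cells in MYC spinal 1, after adding 10 CPM, were -1.34 and 0.33. Tgm2, a transglutaminase, was at 16.5 to 69.5 CPM in tumor cells and was at least 2-fold lower than in other cells in all 3 eRT. The corepressor gene Ncor1 was at 43.8 to 87.8 CPM in tumor and 43.1 to 109 CPM in other cells. Of the other cofactors, Ncoa1, Ncoa2, Ncoa3 and Nrip1 were between 0 and 52.5 CPM in tumor cells. The chemerin receptor genes Ccrl2 and Cmklr1 were in other cells, at 15.4 to 673 CPM and 0 to 39.0 CPM, against 0 to 50.0 CPM and 0 to 1.02 CPM in tumor cells.

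Fabp5, a fatty acid carrier that also binds retinoic acid, was mostly a gene of the other cells, at 40.3 to 779 CPM against 9.15 to 75.5 CPM in tumor cells. Of 8 pathway genes that passed the filter, it alone passed the test between cycling and other tumor cells, beside 178 of 4458 genes (3.99%) higher in cycling cells. Its level in cycling against other tumor cells was 27.5 against 4.57 CPM in MYC spinal 1 (3 and 2 UMIs), 102 against 63.0 CPM in MYC spinal 3, 60.6 against 14.0 CPM in eRT 1, 155 against 36.4 CPM in eRT 2 and 30.4 against 11.1 CPM in eRT 3. It was higher in cycling cells in 5 of 5 tumors, by a log2 fold change of 1.24 (SE 0.24, edgeR adjusted p = 0.00321). The call was lost without pairing by tumor (adjusted p = 0.9995), with cycling cells taken as the upper tercile by share of cycle UMIs (0.254), with the finer clustering alone (0.167) and with a Smarcb1 limit of 0.5 (0.164). The summed level of 57 markers of immune cells, 14 to 44 of which were at 0, was 2020 against 1773 CPM in MYC spinal 1, 1676 against 1240 CPM in MYC spinal 3, 3523 against 2633 CPM in eRT 1, 1589 against 1602 CPM in eRT 2 and 2100 against 2279 CPM in eRT 3, higher in cycling cells in 3 of 5. Ptprc, the pan-leukocyte gene, was at 8.18 to 27.5 CPM in cycling and 2.29 to 13.5 CPM in other tumor cells, higher in cycling cells in 3 of 5. The part of immune RNA in the result was not tested.

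Between eRT and MYC spinal tumor cells, 13 pathway genes passed the filter and none passed the test, as none of 5608 genes did (0.0%) with edgeR. At an unadjusted p under 0.05, 192 of the 5608 genes were counted, and DESeq2 called 19. Of the 13, Meis2 had a log2 fold change (eRT over MYC spinal) of -2.53 (SE 0.92) and Lxn of -2.05 (SE 0.79), with edgeR adjusted p of 0.9998 each, and both were at their lowest among MYC spinal tumors in MYC spinal 2. In simulated data on the 5608 genes, the test recovered 0% of genes changed by a log2 of 2 and 97% of those changed by 5, so differences of a log2 of 2 were not detectable with 3 tumors in each group.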

How the data were processed

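UMI counts from single-cell RNA sequencing (10x Genomics 3′ libraries) of 3 MYC spinal tumors and 3 eRT were used. Per the labels and methods, the authors sorted live cells, aligned reads to mm10 with Cell Ranger 2.0.2 and deposited raw UMI counts per gene and cell, 1 table per tumor. Their methods state minimums of 3 cells per gene and 50 genes per cell. Per-sample columns not used number 0. The members, gene lists and tests were chosen with earlier results of these data known.

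Cells were kept from 200 genes upward and up to 25% mitochondrial UMIs. Integration by Seurat anchors was run within each subtype (2000 variable genes without the members and the pathway list, 30 dimensions, 20 neighbors). A cluster took a cell type name from at least 3 markers present in 10% of its cells and higher by a log2 of 1, unless its leading genes spoke for another type. Clusters with a Smarcb1 level under 0.25 of that in immune-like cells, and at least 10 UMIs expected, were tumor clusters. After seeing that resolution 0.8 alone put 261 cells of MYC spinal 2 in such a cluster with 5 Smarcb1 UMIs against 6.15 expected, tumor cells were required to lie in tumor clusters at both 0.8 and 1.6. Scrublet marked 21 cells (0.0948%), too few to have worked, so no doublet was removed, and the 843 highest scores were left out as an alternative.

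UMIs were summed per tumor and kind of cell and scaled to CPM. Cycling cells were those that Seurat's phase scores put in S or G2/M. Tests were edgeR's quasi-likelihood test on the summed counts with TMM factors and filterByExpr, paired by tumor for cycling against other cells since both come from 1 animal, with Benjamini-Hochberg adjustment over all genes at 0.05. They were tested on simulated counts with 200 changed genes. The test of cycling against other cells recovered 100% of these at a log2 of 2 and of 5. Of its calls, 8.26% and 6.98% were false, above the level of 0.05. The test of eRT against MYC spinal had 8.92% false calls at a log2 of 5. Named were the members, pathway genes reaching 20 CPM, the 3 genes most like each member, and Smarcb1. For 2 of the pathway genes and 1 leading gene of a cluster, values are not reported here. Alternatives were DESeq2, no TMM factors, all genes with a UMI, no pairing, the upper tercile of cells by cycle UMIs, a stricter choice of cells (500 genes, 10% mitochondrial UMIs), resolutions 0.4 and 1.6, Smarcb1 limits of 0.15 and 0.5, immune-like cells alone, a pseudocount of 1 CPM, thinning to 1000 UMIs and each tumor left out. Resolution 0.8 alone and the counts without MYC spinal 2 were added after the data were seen. Tools were R 4.3.3, Seurat 5.3.0, edgeR 4.0.16, DESeq2 1.42.0 and Python 3.11.15 (pandas 2.3.3, numpy 2.4.6, scanpy 1.11.5 and scipy 1.17.1).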

Additional observations from a re-analysis of the deposited data

How the results depend on the processing

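Of 130 recomputed log2 ratios of members between tumor and other cells, 125 moved by less than the SD over tumors. Adding 1 CPM in place of 10 gave 7.04 for Crabp1, 2.83 for Rarres2 and 1.85 for Rarg in eRT and 0.60 for Crabp2 in MYC spinal, and immune-like cells alone gave 6.59 for Crabp1 in eRT. With each tumor left out, the mean log2 ratios ran from 3.66 to 5.49 (Crabp1), 0 to 0.23 (Crabp2), 1.55 to 3.84 (Rarres1), -0.013 to 1.38 (Rarres2) and 0.96 to 1.74 (Rarg) in MYC spinal and from 5.96 to 6.36, 0.56 to 2.81, -0.42 to 0.90, 0.73 to 1.99 and 1.14 to 1.41 in eRT. Crabp2 in eRT was 0.56 without eRT 1, and the signs of Rarres1 in eRT (-0.42 without eRT 2) and of Rarres2 in MYC spinal (-0.013 without MYC spinal 2) turned. Of 30 positive shares, 13 left their interval on thinning.

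Between cycling and other tumor cells, 294 genes were called. The count was 152 with DESeq2, 575 with every gene, 39 without the replicate block (the pairing by tumor), 149 with the upper tercile, and 86 to 453 with each tumor left out, the lowest without MYC spinal 3 (86) and eRT 3 (95) and the highest without eRT 2. Pathway genes called numbered 3 with every gene (Fabp5, Meis1 and Rbp4), 0 without the block, with the upper tercile, at resolution 1.6 and at a limit of 0.5, and 1 with each tumor left out. The log2 fold change of Fabp5 was 0.59 to 1.92 over the alternatives. No member was called under any, and Crabp1 turned to -0.43 with the upper tercile and -0.061 without MYC spinal 1, with a range of -0.061 to 0.48 as each tumor was left out, while Crabp2, Rarres1 and Rarg kept their sign wherever they could be tested. Between eRT and MYC spinal, DESeq2 called 19 genes and the other alternatives none, with each tumor left out also 0, and no alternative called a pathway gene. With 16 tumor cells in MYC spinal 2 and 3 tumors per group, depth and number limit what could be seen.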
